A study of Mus musculus with 2 samples.

Results

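Genes for clotting factors, fibrinolysis and provisional matrix were followed through the immune cells of the nephritic mouse kidney. The set holds 9 genes (*F3*, *F10*, *F5*, *F13a1*, *Plau*, *Plaur*, *Fn1*, *Vcan* and *Thbs1*), chosen by name for their bearing on fibrin in glomerular crescents, out of 20299 genes in the count matrix. They were listed as coagulation and matrix genes of monocytes, with earlier results of these data known. That many of them stood highest in myeloid clusters is therefore no independent result. Unique molecular identifiers (UMIs, one per captured transcript) were summed by the authors' cluster and by mouse. The kidneys came from nephrotoxic serum nephritis (NTN), in which C57BL/6 mice aged 8 weeks were primed with 200 μg of sheep IgG in complete Freund's adjuvant and received sheep nephrotoxic serum intravenously 4 days afterwards. There was 1 library from WT mice (5470 cells, 32799550 UMIs) and 1 from *Vsir-/-* mice (1844 cells, 18601189 UMIs), which lack the checkpoint molecule VISTA in all cells. The number of mice behind each library is not given in the sources used here.

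With 1 library per genotype no difference between genotypes has a replicate check. No test was made, and every interval below covers counting error only. Levels are given as CPM, the UMIs of the gene per 1000000 UMIs of the same cells. *Vsir* itself held 4278 UMIs in the WT library and 8 in the *Vsir-/-* library. The labels describe the WT cells as a CD45+ sort and the *Vsir-/-* cells as all kidney cells, whereas the study's methods describe a CD45+ sort, and *Ptprc*, which encodes CD45, was found in 94.2% of the WT library and 73.6% of the *Vsir-/-* library. The 2 libraries shared 5 cell barcodes. The libraries also differed in *Spp1*, a secreted matrix protein made by injured tubules, which was found in 90.9% of *Vsir-/-* B cells and 0.103% of WT B cells.

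Tissue factor, the product of *F3*, starts clotting when it meets factor VII. Factor X (*F10*) with its cofactor factor V (*F5*) then makes thrombin, and factor XIIIa (*F13a1*) cross-links the fibrin that thrombin lays down. Urokinase (*Plau*), held at the cell surface by its receptor (*Plaur*), turns plasminogen into the plasmin that dissolves fibrin, while fibronectin (*Fn1*), versican (*Vcan*) and thrombospondin 1 (*Thbs1*) build and modify the provisional matrix. Fibrin in Bowman's space is a known feature of glomerular crescents, and monocytes and macrophages are known sources of several of these proteins.

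The 9 genes did not share 1 cell type. Among the 13 WT clusters of at least 50 cells, 4 of the 9 genes (*F10*, *F13a1*, *Fn1* and *Vcan*) had their highest CPM in the infiltrating macrophage cluster that the authors named M2-like R2, beside 6.38% of all genes with at least 20 UMIs. Another 4 (*F3*, *F5*, *Plaur* and *Thbs1*) were highest in neutrophils, beside 7.71% of all genes, and *Plau* was highest in the resident macrophages named R1, beside 12.2%. In the *Vsir-/-* library, with 11 such clusters, *F10*, *F13a1*, *Fn1* and *Vcan* were again highest in M2-like R2 (3.61% of all genes), and *F5*, *Plaur* and *Thbs1* in neutrophils (6.02%). *Plau* was highest in the cluster named CD4+ T, non-EM-like (24.7%) and *F3* in the proliferating cells (21.4%), though only 1.04-fold (0.81 to 1.33) above the former cluster, and after thinning the former held more (9 against 3 UMIs). Both clusters held kidney cells in that library.

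**Figure D1:**
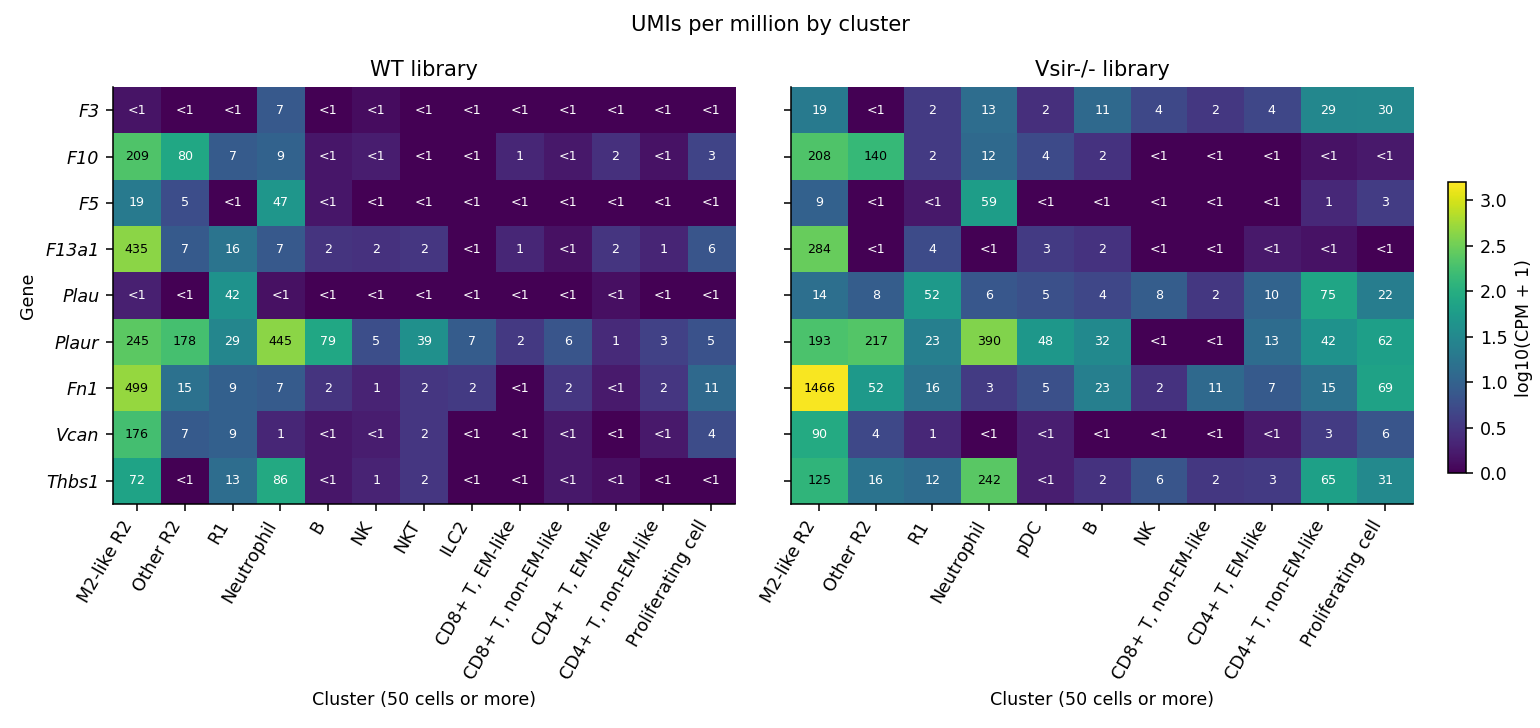
CPM of the 9 genes (rows) in each cluster of at least 50 cells (columns) of the WT library (left) and the *Vsir-/-* library (right); colour is log10(CPM + 1) and the printed number is the CPM. *Fn1*, *F13a1*, *F10* and *Vcan* stand highest in M2-like R2 in both libraries, and *Fn1* there goes from 499 CPM in WT to 1466 CPM in *Vsir-/-*.

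M2-like R2 carried markers of classical monocytes in both libraries. *Ly6c2* stood at 2972 CPM in WT mice and 1673 CPM in *Vsir-/-* mice, and *Ccr2*, the chemokine receptor by which these cells leave the marrow, at 912 and 931 CPM. The cluster named Other R2 had lower values for *Ly6c2* (220 and 91.9 CPM) and *Ccr2* (57.8 and 9.06 CPM) and higher ones for the 7 nonclassical monocyte genes (3568 and 4184 CPM, against 957 and 885 CPM in M2-like R2). Of the 9 genes, then, *F10*, *F13a1*, *Fn1* and *Vcan* were highest in the cluster with the monocyte markers, and the other 5 were not. The 5 platelet genes in the file, which mark a cell type rich in factor XIIIa, factor V and thrombospondin 1, summed to 7 UMIs in WT and 17 UMIs in *Vsir-/-* M2-like R2.

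Of the 9 genes, 6 had an upstream sequence in the RefSeq table used (build GRCm38.p6). The 250 bases before the start of transcription are shown for 4 of them, *F13a1* and *Vcan* as genes highest in M2-like R2 and *Plaur* and *F3* as genes highest in WT neutrophils. Capitals mark matches on either strand to TGANTCA, the core of AP-1 sites, or to GAGGAA, the core of sites of the myeloid factor PU.1. The 2 motifs were chosen with the values of the genes known.
*F13a1*, chr13:37050245-37050494, minus strand: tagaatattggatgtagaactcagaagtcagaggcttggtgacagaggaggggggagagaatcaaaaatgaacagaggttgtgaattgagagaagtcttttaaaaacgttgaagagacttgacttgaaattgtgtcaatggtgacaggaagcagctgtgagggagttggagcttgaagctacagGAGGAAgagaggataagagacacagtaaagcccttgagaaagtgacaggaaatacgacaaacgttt
*Vcan*, chr13:89742513-89742762, minus strand: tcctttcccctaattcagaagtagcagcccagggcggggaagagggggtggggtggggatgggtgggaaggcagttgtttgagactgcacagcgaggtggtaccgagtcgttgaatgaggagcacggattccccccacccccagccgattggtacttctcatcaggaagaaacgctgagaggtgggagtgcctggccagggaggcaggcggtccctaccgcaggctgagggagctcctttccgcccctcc
*Plaur*, chr7:24462233-24462482, plus strand: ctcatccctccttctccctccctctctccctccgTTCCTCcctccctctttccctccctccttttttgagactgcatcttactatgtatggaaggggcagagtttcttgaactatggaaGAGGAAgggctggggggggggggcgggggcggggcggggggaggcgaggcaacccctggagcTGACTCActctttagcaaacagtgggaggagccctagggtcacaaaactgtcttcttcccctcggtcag
*F3*, chr3:121723287-121723536, plus strand: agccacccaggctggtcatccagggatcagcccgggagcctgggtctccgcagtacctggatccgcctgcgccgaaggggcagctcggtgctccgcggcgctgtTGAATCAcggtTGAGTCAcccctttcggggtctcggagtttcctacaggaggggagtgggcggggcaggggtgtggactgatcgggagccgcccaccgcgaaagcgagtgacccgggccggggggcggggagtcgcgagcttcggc
The *F3* window held 2 AP-1 matches, at bases 105 and 116 of the 250, and the *Plaur* window held 1, at base 182, beside PU.1 matches at bases 35 and 120. In *F13a1* a PU.1 match lay at base 185 of the window of 1 start site, and none in that of its second start site. The windows of *Vcan*, *F10* and *F5* held neither set of letters. Among all 32536 upstream windows, 6.73% held the AP-1 letters and 23.4% the PU.1 letters. A match describes the letters and is no measurement of binding.

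*F3* was nearly absent from the sorted WT immune cells. Of its 20 UMIs, 17 (85.0%) lay in neutrophils, in 15 of 524 cells and with at most 3 in any cell. M2-like R2 held 2 UMIs among 456 WT cells, and WT B cells held none, which allows a share of up to 0.310% of cells with a UMI. In the *Vsir-/-* library *F3* held 332 UMIs, of which 135 lay in proliferating cells and 134 in the CD4+ T, non-EM-like cluster. M2-like R2 of *Vsir-/-* mice held 32, and 29 of these came from 1 cell. That cell had 538 UMIs of *Slc14a2*, a urea transporter of the inner medulla, and 88 UMIs of the 16 tubule genes together with 29 of *Ptprc*. The other *Vsir-/-* M2-like R2 cells held 3 UMIs of *F3* in all. In *Vsir-/-* neutrophils *F3* stood at 12.9 CPM (10 UMIs), against 11.4 CPM (6 UMIs) in B cells, 2.50 CPM in R1 and 0 UMIs in Other R2 of the same library.

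*F10* was a gene of both infiltrating macrophage clusters. WT M2-like R2 held 918 of the 1076 WT UMIs (85.3%, 95% interval 83.1 to 87.4), at 209 CPM (196 to 223). Other R2 followed at 80.4 CPM (65.6 to 97.5) and neutrophils at 9.27 CPM, so M2-like R2 stood 2.60-fold (2.12 to 3.22) above Other R2, whose own value was 8.67-fold (5.48 to 14.3) above that of neutrophils. Below these, neutrophils and R1 (7.20 CPM) did not differ beyond counting error. After every cell was thinned to 1000 UMIs, *F10* was found in 16.9% of M2-like R2 cells and 6.11% of Other R2 cells, and in 0 of 947 WT B cells.

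*F5*, better known from liver and platelets, was highest in neutrophils here, though M2-like R2 held 85 of its 210 WT UMIs (40.5%). WT neutrophils held 117 of 210 UMIs at 47.2 CPM (39.0 to 56.5), 2.44-fold (1.83 to 3.26) above M2-like R2 at 19.3 CPM (15.5 to 23.9). No cell held more than 5 UMIs. The order was kept in the *Vsir-/-* library, with 59.2 CPM in neutrophils and 8.95 CPM in M2-like R2.

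*F13a1* was the most narrowly placed of the clotting genes. M2-like R2 held 94.8% of its UMIs in WT (1912 of 2016, 435 CPM) and 97.1% in *Vsir-/-* (475 of 489, 284 CPM), although the cluster made up 8.34% and 9.11% of the cells. Among WT clusters of at least 50 cells the next, R1, stood 27.5-fold (15.3 to 55.2) lower at 15.8 CPM, with 11 UMIs in 2 cells, both of which also held *Ly6c2*. Neutrophils held 17 UMIs in WT, of which 15 lay in 1 cell.

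*Plau* was a gene of the resident macrophages. In WT R1 it held 29 UMIs (41.7 CPM, 27.9 to 59.9), 82.9% of the 35 in the library, and it was found in 19.0% of the 116 cells with at most 3 UMIs in any of them. The next cluster, M2-like R2, held 4 UMIs. In *Vsir-/-* R1, 84 UMIs gave 52.5 CPM (41.8 to 65.0) in 237 cells, of which 24.1% had a UMI. The genotypes overlapped within counting error in R1, with a log2 ratio of 0.33 (-0.29 to 0.99).

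*Plaur*, its receptor, was the most widely spread of the 9 genes. WT neutrophils stood at 445 CPM (420 to 472), M2-like R2 at 245 CPM (231 to 260), Other R2 at 178 CPM (156 to 203) and B cells at 78.7 CPM (69.6 to 88.6), and each step of this order was larger than its counting error. R1 cells, where its ligand *Plau* was highest, had 28.8 CPM. At 1000 UMIs per cell, *Plaur* was found in 33.2% of WT neutrophils and 31.4% of *Vsir-/-* neutrophils. In WT B cells, often taken as a background for myeloid genes, *Plaur* was found in 18.4% of cells over all UMIs. That share is not comparable with the thinned ones, and after thinning WT B cells held 72 UMIs of *Plaur*. The CD4+ T, non-EM-like cluster of that library stood at 3.14 CPM, and *Vsir-/-* B cells at 32.4 CPM. Whether the *Plaur* in B cells was their own was not tested.

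*Fn1* and *Vcan* followed *F13a1* in WT mice. M2-like R2 held 94.6% of *Fn1* (2190 of 2314 UMIs, 499 CPM) and 95.1% of *Vcan* (771 of 811 UMIs, 176 CPM). Among clusters of at least 50 cells the next were 33.6-fold lower for *Fn1* (Other R2, 14.8 CPM) and 20.3-fold lower for *Vcan* (R1, 8.63 CPM), while the 25 WT basophils held 10 UMIs of *Fn1* (68.8 CPM). *Thbs1* was shared between neutrophils (86.3 CPM, 75.1 to 98.6) and M2-like R2 (71.7 CPM, 64.0 to 80.1), which together held 529 of 553 WT UMIs. It was found in 59 of the 524 WT neutrophils. The 53 cells with most of it, ranked by *Thbs1* itself, held 97.2% of the neutrophils' UMIs.

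**Figure D2:**
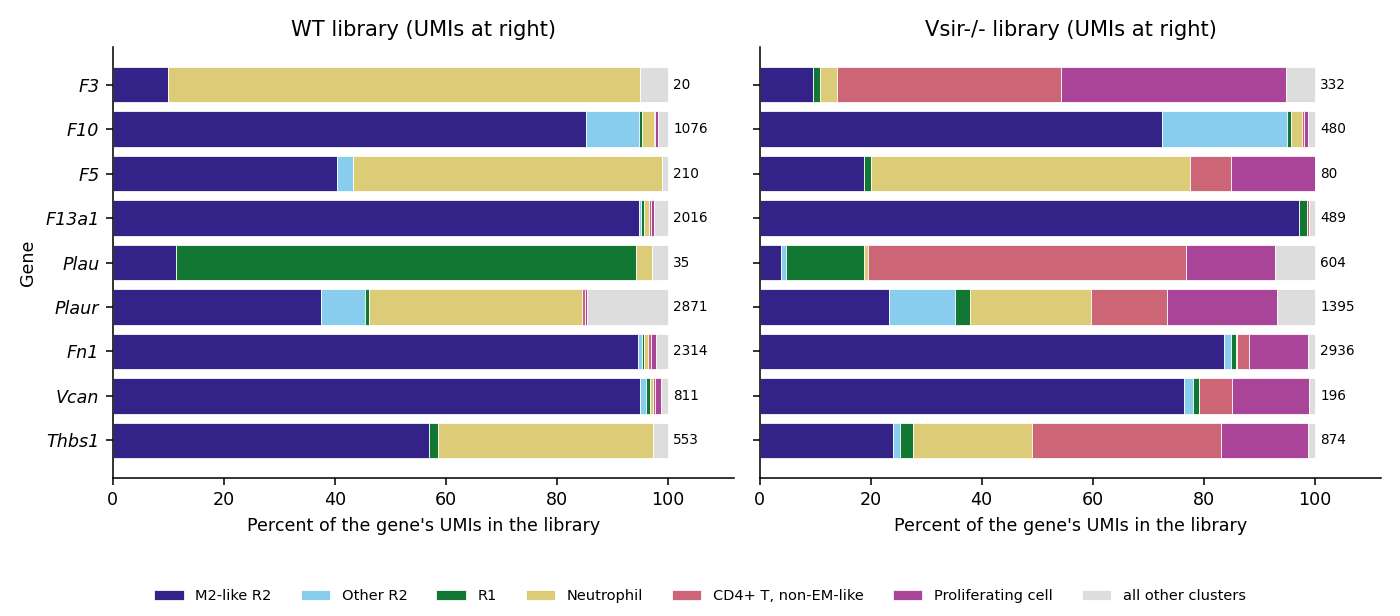
Percent of each gene's UMIs (bars, adding to 100) that lay in each cluster of the WT library (left) and the *Vsir-/-* library (right), with the gene's total UMIs at the right of each bar. *F13a1* stays in M2-like R2 in both libraries, while for *F3*, *Plau* and *Thbs1* a large share of the *Vsir-/-* UMIs lies in the CD4+ T, non-EM-like and proliferating clusters.

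Between the genotypes, M2-like R2 was the cluster in which all 9 genes reached 20 UMIs. With a call at 2-fold or more, 3 of the 9 were higher in *Vsir-/-* (*Fn1*, *Plau* and *F3*), beside 8.11% of all 9751 genes, and 1 was lower (*F5*), beside 7.61%. *Fn1* went from 499 CPM to 1466 CPM, a log2 ratio of 1.56 (1.47 to 1.64). *Vcan* went from 176 to 89.5 CPM (-0.97, -1.23 to -0.72) and *F13a1* from 435 to 284 CPM (-0.62, -0.77 to -0.47), both lower by less than the 2-fold limit. *F10* stood at 209 and 208 CPM, a log2 ratio of -0.01 (-0.19 to 0.17). *Thbs1* went from 71.7 to 125 CPM (0.80, 0.54 to 1.06) and *Plaur* from 245 to 193 CPM (-0.34, -0.53 to -0.16). The genes that had shared this cluster in WT mice thus had ratios of both signs. The median of the 9 log2 ratios, taken with 0.5 added to each count, was -0.01, beside 0.01 for all genes.

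The calls for *F3*, *Plau* and *F5* rested on few UMIs. *F3* went from 2 to 32 UMIs, nearly all in the cell with *Slc14a2* described above. *Plau* went from 4 to 23 UMIs, 11 of them in 1 cell, and *F5* from 85 to 15. In a choice made after seeing the data, the cell with most UMIs of each gene was left out in each library. With this, 1 gene was called higher and 2 were called lower. The share of all genes called was not taken at this setting, so these counts are no result about the members. Over the cluster, the tubule genes went from 13 to 1413 CPM, the neutrophil genes from 4337 to 244 CPM and *C1qa*, a complement gene of mature macrophages, went from 31.9 to 378 CPM. The part of tubule and neutrophil RNA in these ratios was not tested.

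**Figure D3:**
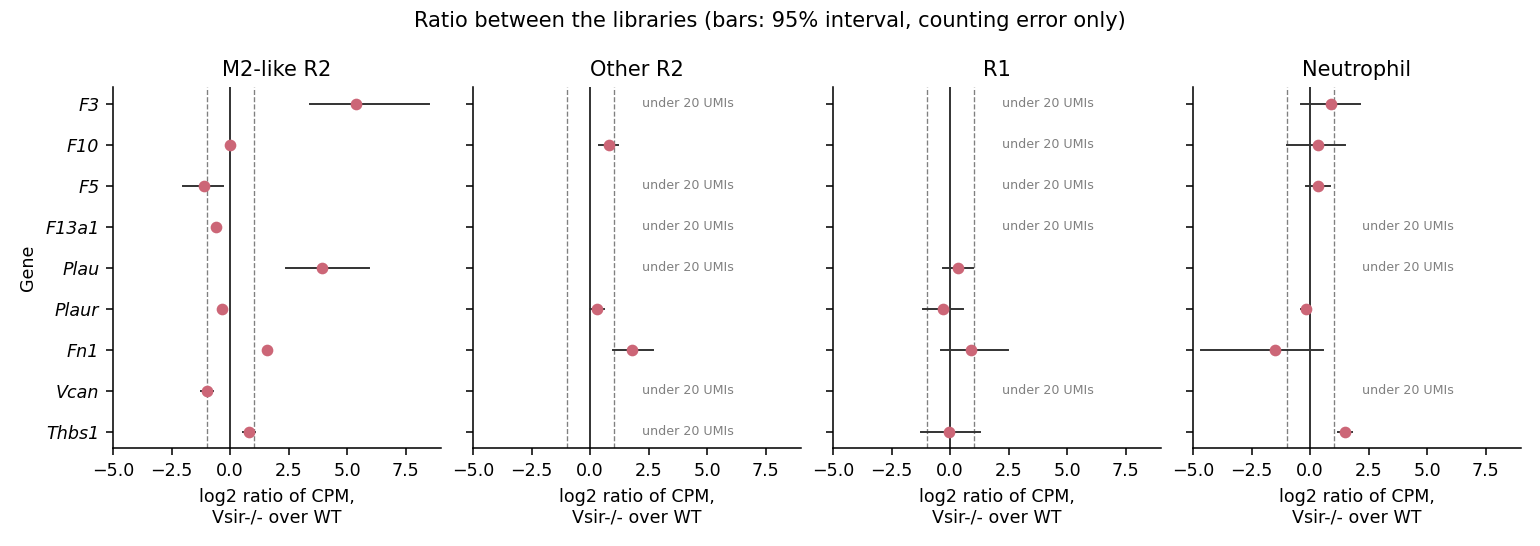
Log2 ratio of CPM, *Vsir-/-* over WT, for the genes that reached 20 UMIs in a cluster (points) with its 95% interval for counting error (bars); the dashed lines are the 2-fold limits. *Fn1* in M2-like R2 and *Thbs1* in neutrophils lie beyond 2-fold with narrow intervals, whereas *F3* and *Plau* in M2-like R2 have wide ones. The intervals do not cover unevenness among cells: 24 of 168 *Vsir-/-* M2-like R2 cells held 78.6% of the cluster's *Fn1* UMIs.

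The higher *Fn1* of *Vsir-/-* M2-like R2 came from few cells. Its median was 2 UMIs per cell in both libraries, and its share of cells with a UMI was 60.1% in WT and 63.1% in *Vsir-/-*. Cells with 20 or more *Fn1* UMIs numbered 21 of 456 in WT and 24 of 168 in *Vsir-/-*, where they held 78.6% of all *Fn1* UMIs of the cluster, against 29.1% in WT. The highest cell held 313 UMIs in *Vsir-/-* and 70 in WT. Without these cells, which were picked by *Fn1* itself so that the values are drawn together, *Fn1* stood at 383 CPM (WT) and 388 CPM (*Vsir-/-*). In *Vsir-/-*, 17 of the 24 cells had no *Ly6c2*, 19 had a transcript of *C1qa*, *C1qb* or *C1qc* and 13 had *Arg1*, whose enzyme arginase 1 competes for arginine in alternatively activated macrophages. Of the 21 WT cells, 2 lacked *Ly6c2*, 1 had a C1q transcript and 2 had *Arg1*.

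The cells of M2-like R2 were therefore split by *Ly6c2*, a gene of classical monocytes, and by the 3 C1q genes. The split was made after the values had been seen and is a description. Cells with *Ly6c2* and no C1q transcript numbered 382 in WT and 90 in *Vsir-/-*, and in them *Fn1* stood at 487 CPM (466 to 509) and 535 CPM (490 to 583), a log2 ratio of 0.13 (-0.01 to 0.28). *F13a1* in the same cells stood at 436 and 431 CPM (-0.02, -0.18 to 0.14), a smaller difference than over the whole cluster. *Vcan* stood at 179 and 135 CPM (-0.40, -0.68 to -0.13), and at 151 and 159 CPM once the cells were thinned to 1000 UMIs and classed anew. Over all UMIs, *F10* stood at 213 and 177 CPM (-0.27, -0.51 to -0.03), *Plaur* at 247 and 196 CPM (-0.34, -0.57 to -0.11) and *Thbs1* at 73.6 and 106 CPM (0.53, 0.19 to 0.86). Thinned and classed anew, *Fn1* stood at 562 and 463 CPM (-0.28, -0.82 to 0.23) and *F13a1* at 429 and 378 CPM (-0.18, -0.79 to 0.39). In these thinned cells *F10* stood at 202 and 159 CPM, *Plaur* at 256 and 134 CPM (-0.93, -1.99 to -0.01) and *Thbs1* at 69.4 and 159 CPM (1.19, 0.08 to 2.24). Without thinning, *F5* went from 80 to 5 UMIs (log2 ratio of CPM -1.94, -3.60 to -0.66), lower by more than 2-fold. *F3* and *Plau* held too few UMIs for a call in this class, and over all UMIs none of the other members of the 9 was called higher. On thinning *Thbs1* lay past the 2-fold limit, on 22 WT and 13 *Vsir-/-* UMIs. The share of all genes called was not taken in this class.

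Cells with C1q transcripts and no *Ly6c2* were 3 in WT and 35 in *Vsir-/-*. The 35 *Vsir-/-* cells held 1669 *Fn1* UMIs, 68.0% of those in the cluster, at 5069 CPM (4829 to 5318), in 22 cells of which the highest held 313. The same cells had little *F13a1* (18.2 CPM, 6 UMIs) and *Vcan* (33.4 CPM, 11 UMIs) and kept *F10* (264 CPM) and *Plaur* (203 CPM). Over all UMIs they had more *Thbs1* (240 CPM, 190 to 299) than the *Ly6c2* cells. That order was not kept on thinning to 1000 UMIs. All *Vsir-/-* M2-like R2 cells without *Ly6c2* then held 5 UMIs of *Thbs1* (72.5 CPM), and those with it 13 (144 CPM). In the 3 WT cells, *Fn1* gave 26 UMIs in 1 cell. *Fn1* was thus highest in a class with little *F13a1* and *Vcan*. Cells with both *Ly6c2* and C1q transcripts numbered 22 in WT and 32 in *Vsir-/-*, and in them *F13a1* stood at 596 and 160 CPM (-1.90, -2.37 to -1.45), *Vcan* at 196 and 26.2 CPM (-2.91, -4.11 to -1.88) and *Fn1* at 502 and 608 CPM (0.28, -0.04 to 0.60). These cells also differed between the libraries in the classical monocyte genes (12722 and 8800 CPM) and the macrophage genes (2269 and 3234 CPM). The part of that difference in the ratios was not tested. Thinning each cell to 1000 UMIs and classing it anew gave 4758 CPM of *Fn1* in 33 *Vsir-/-* cells with C1q and no *Ly6c2* and 463 CPM in 82 cells with *Ly6c2* alone.

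These C1q cells had a median of 7885 UMIs, and *Ptprc* was found in 88.6% of them. They were not deeper than the *Vsir-/-* cells with *Ly6c2* alone (median 11010), but were deeper than the 11 with neither transcript (median 820). In the C1q cells the macrophage genes summed to 6518 CPM, against 1270 CPM in those *Ly6c2* cells, and the tubule genes to 1701 against 1337 CPM. The fibroblast and mesangial genes, of a usual source of fibronectin in kidney, summed to 18.2 CPM (6 UMIs) against 3.12 CPM (3 UMIs). Serous cavity macrophage genes summed to 69.9 against 30.2 CPM. The genes that led this class over the *Ly6c2* cells, beside C1q, were *Arg1* (832 against 2.08 CPM), *Slc7a2*, which imports arginine (349 against 1.04 CPM), *Ltc4s* (547 against 2.08 CPM), *Ecm1* (364 against 9.36 CPM) and *Mmp14*, a collagenase at the cell surface (264 against 21.8 CPM). *Saa3*, *Slc14a2* and *Cryab* also led, but 977 of 1557, 538 of 540 and 237 of 242 of their UMIs lay in 1 cell each. The 32 UMIs of *F3* in *Vsir-/-* M2-like R2 all lay in this class. The cell with 29 of them, which also held the 538 UMIs of *Slc14a2*, had 1 C1q UMI among its 27992 UMIs. R1 macrophages, in which C1q was far higher (*C1qa* 5366 CPM in *Vsir-/-*), had *Fn1* at 16.2 CPM, 21 of 26 UMIs in 1 cell, so C1q alone did not mark the cells with *Fn1*.

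**Figure D4:**
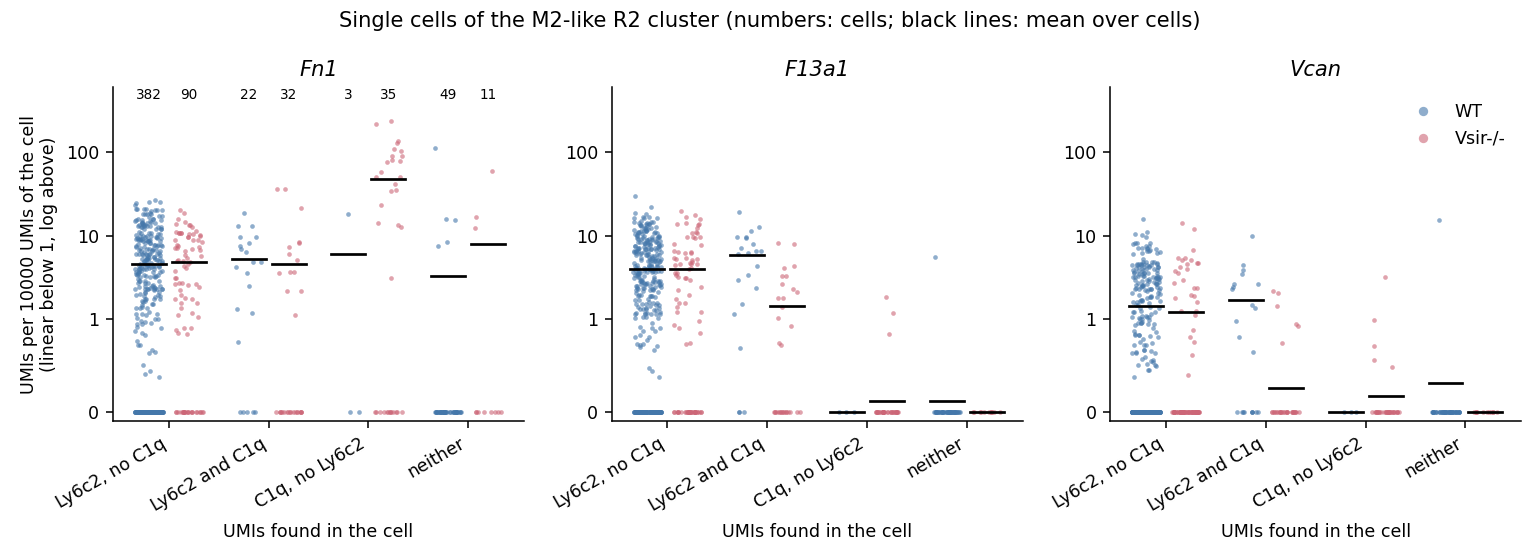
UMIs of *Fn1*, *F13a1* and *Vcan* per 10000 UMIs of each M2-like R2 cell (points), by which of *Ly6c2* and C1q transcripts the cell held, in WT (blue) and *Vsir-/-* (red); the axis is linear below 1 and logarithmic above, numbers are cells and black lines are means over cells. *Fn1* is highest in the 35 *Vsir-/-* cells with C1q and no *Ly6c2*, where *F13a1* and *Vcan* are mostly 0.

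In neutrophils, 6 of the 9 genes reached 20 UMIs. *Thbs1* was the 1 gene called higher in *Vsir-/-*, beside 9.99% of all genes, and *Fn1* the 1 called lower, beside 10.6%. *Thbs1* went from 214 UMIs in 524 cells (86.3 CPM) to 188 UMIs in 158 cells (242 CPM, 209 to 279), a log2 ratio of 1.49 (1.20 to 1.78). At 1000 UMIs per cell it was found in 3.78% (2.29 to 5.84) of WT neutrophils and 15% (9.77 to 21.7) of *Vsir-/-* neutrophils, and cells with 5 or more UMIs made up 2.67% and 10.1%. No single cell carried the difference, since the highest cells held 20 and 21 UMIs and leaving them out gave 78.6 and 218 CPM. *Vsir-/-* B cells held 1 UMI of *Thbs1* (1.91 CPM). The summed endothelial genes of these neutrophils went from 15.7 to 291 CPM, the podocyte genes from 0.403 to 88.8 CPM and the early response genes, which rise during tissue digestion, from 10924 to 7144 CPM; their part in the *Thbs1* ratio was not tested.

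The other neutrophil ratios were smaller or rested on single cells. *Plaur* stood at 445 and 390 CPM (-0.19, -0.38 to -0.01), *F5* at 47.2 and 59.2 CPM (0.33, -0.20 to 0.83) and *F10* at 9.27 and 11.6 CPM (0.32, -0.97 to 1.49). For *Fn1*, 15 of the 18 WT UMIs lay in 1 cell, and without the top cells it was 1.23 CPM in WT.

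Other R2 had 3 genes with 20 UMIs. *Fn1* was called higher, beside 6.71% of all genes, and none was called lower, beside 9.52%. The *Fn1* call (19 to 40 UMIs) came from 1 *Vsir-/-* cell with 31 UMIs, and without the top cells the values were 7.96 and 11.7 CPM. *F10* went from 80.4 CPM (103 UMIs) to 140 CPM (108 UMIs, 115 to 169), a log2 ratio of 0.80 (0.39 to 1.20) that was under the 2-fold limit. At 1000 UMIs per cell, 12 UMIs in 180 WT cells and 24 in 127 *Vsir-/-* cells put *F10* past that limit. It was found in 30.3% of WT and 45.0% of *Vsir-/-* cells, and in 6.11% and 15.7% of cells at 1000 UMIs. Over all UMIs, Other R2 cells with *Ly6c2* had 98.8 and 161 CPM and those without it 68.8 and 131 CPM. The tubule genes of this cluster went from 6.24 to 2135 CPM and the B cell genes from 1660 to 18.1 CPM, and their part in the *F10* ratio was not tested. R1 had 4 genes with 20 UMIs, of which none was called higher or lower, beside 13.6% and 8.78% of all genes.

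In the *Vsir-/-* library, most *F3* and *Plau* and a part of *Thbs1* lay in cells without transcripts of T cells or *Ptprc*. The CD4+ T, non-EM-like and proliferating clusters held no UMI of these 3 genes in WT. In *Vsir-/-* the former held 134, 346 and 297 UMIs and the latter 135, 97 and 138. In *Vsir-/-*, 324 cells of these clusters had neither a T cell receptor complex transcript nor *Ptprc*, and their tubule genes summed to 14344 CPM. These 324 cells held 62.3% of the library's *F3*, 60.8% of its *Plau* and 37.4% of its *Thbs1*. They were themselves of more than 1 kind. The 93 with at least 3 endothelial genes had *Plaur* at 93.2 CPM, *Fn1* at 69.1 CPM (127 of 155 UMIs in 1 cell), *Thbs1* at 35.7 CPM, *F3* at 20.5 CPM and *Plau* at 13.8 CPM. The other 231, with tubule genes at 22376 CPM, had *Plau* at 107 CPM, *Thbs1* at 78.7 CPM, *F3* at 51.3 CPM and *Plaur* at 24.9 CPM. Urokinase and its receptor thus stood in a different order in these 2 kinds of cells. The 182 cells with a T cell transcript in the same clusters had *Plau* at 19.9 CPM, *Thbs1* at 28.2 CPM and *F3* at 11.3 CPM, and whether free RNA or joined cells gave these was not tested.

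Other genes of the same pathways were read from 3 lists of 74 genes on coagulation, fibrinolysis and matrix with its receptors, of which 71 were in the file. In M2-like R2, 33 reached 20 UMIs, 8 were 2-fold or more higher in *Vsir-/-* (8.11% of all genes) and 1 was lower (7.61%), with a median log2 ratio of 0.17 beside 0.01 for all genes. By role, 3 of 10 coagulation genes and 5 of 18 matrix genes or receptors were higher there, and 1 of 5 fibrinolysis genes was lower. In R1, 13 of 38 were higher and 1 lower, beside 13.6% and 8.78% of all genes (median 0.59 beside -0.01). Among those higher in R1, *Plat*, *Sparc*, *Adamts1*, *Adamts5* and *F8* went from 0 WT UMIs to 280, 753, 73, 50 and 23. *Sparc* also went from 0 UMIs to 24 in M2-like R2, 65 in Other R2 and 71 in neutrophils, so it was not particular to R1. The part of RNA from other cells in these calls was not tested. In Other R2, 5 of 30 were higher and 4 lower, beside 6.71% and 9.52% (0.26 beside -0.06). In neutrophils, 6 of 28 were higher and 1 lower, beside 9.99% and 10.6% (0.01 beside -0.06). Among genes with at least 100 UMIs and at least 4 in each library, *Spp1* had the largest ratio in R1 and M2-like R2, from 5.76 to 539 CPM and from 29.8 to 530 CPM. It stood at 3012 CPM in *Vsir-/-* B cells and was found in at least 90.9% of the cells of every *Vsir-/-* cluster of at least 50 cells, lymphocytes included, so it was not particular to macrophages.

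Beside *Spp1*, *Cd36*, a receptor of thrombospondin 1, went from 7.74 to 61.5 CPM in M2-like R2 (2.99, 2.42 to 3.59) and from 133 to 215 CPM in Other R2 (0.69, 0.37 to 1.0). The smallest ratios in M2-like R2 were those of *Serpinb2*, an inhibitor of urokinase (24.6 to 11.9 CPM), and *Thbd*, the thrombin receptor thrombomodulin (30.5 to 16.7 CPM). In R1 *Gas6*, a vitamin K-dependent ligand, went from 17.3 to 104 CPM, while the fibronectin receptor subunit *Itga4* went from 177 to 68.1 CPM and the hyaluronan receptor *Cd44* from 118 to 69.9 CPM. *Gas6* also went from 2 to 32 UMIs in M2-like R2, 0 to 30 in Other R2 and 0 to 34 in neutrophils. Its higher level in *Vsir-/-* was thus not particular to R1. In Other R2 *Tgm2*, the tissue transglutaminase, went from 169 to 338 CPM, and *S100a10* and *Anxa2*, which form a plasminogen-binding complex, went from 252 to 75.1 CPM and from 296 to 223 CPM. Over the 3 macrophage clusters the highest of these genes were *Lgals3* (1560 CPM in WT and 1078 CPM in *Vsir-/-*), *Anxa2*, *Cd47*, *S100a10* and *Tgfbi*. These pooled values depend on the mix of the clusters, which differed between the libraries, and are no comparison of genotypes. Within clusters *Lgals3* went from 259 to 410 CPM in R1 and from 678 to 826 CPM in Other R2. In M2-like R2 it went from 2024 to 1833 CPM.

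The genes whose levels followed those of a member most closely were found by Pearson's r of log2(CPM + 1) over the 13 WT clusters, which come from 1 library and differ in depth. Among genes with at least 200 WT UMIs, *Vcan* was the closest gene to both *Fn1* (r = 0.96) and *F13a1* (r = 0.95). *Prtn3*, a granule protease, came next for *Fn1* (0.93) and was among the closest 3 for *F13a1* (0.94). *F10* went with *Idh1*, *Ifi205* and *Nupr1* (0.98, 0.98 and 0.96), *F5* with the neutrophil antigen *Cd177* (0.98), *Plaur* with *Cux1* (0.96) and *Thbs1* with *Cfp*, which encodes properdin (0.89). In single WT M2-like R2 cells thinned to 1000 UMIs, *Fn1* was found in 51.3% of the 115 cells with *F13a1* and in 25.2% of those without it, and both were found in 14.4% of the 409 cells. Not every pair of members went this way. *Plaur* was found in 14.8% of the cells with *F13a1* and 20.7% of those without it. *Vcan* was found in 8.70% of the cells with *F10* and 10.9% of those without it.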

How the data were processed

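Single cells of NTN kidneys were profiled with a droplet 3′ method from 1 WT and 1 *Vsir-/-* library. The authors deposited raw UMI counts per gene and cell, with a table of clusters and of the mitochondrial percent of each cell, as the authors' pipeline gave them; their notes name Cell Ranger 3.1.0, R 4.0.3, Seurat 3.2.3 and mm9, whose roles the notes do not give. Their methods keep genes found in 5 or more cells, and cells with at least 200 UMIs and at most 10% mitochondrial UMIs; the lowest cell in the file held 501 UMIs. How doublets were treated is not given in the sources used here, and none were removed here. All cells were used, with the authors' cluster names.

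Counts were summed by cluster and library (Python 3.11.15, scipy 1.17.1) and divided by all UMIs of the same cells. Intervals are exact 95% ones (Poisson for CPM, Clopper-Pearson for shares, conditional binomial for ratios) and cover counting error only; the limit given for a count of 0 is 3 counts. A gene was called at 2-fold or more on log2 with 0.5 added to each count, where its cluster sum over both libraries reached 20 UMIs. No test was possible with 1 library per genotype. To compare shares of cells, each cell was thinned to 1000 UMIs, leaving out 167 WT and 78 *Vsir-/-* cells. The ratio and its interval were checked on simulated cluster sums drawn from Poisson counts. Such sums hold counting error alone, so the check cannot speak to unevenness among cells.

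The genes named were the 9 members wherever they held 20 UMIs. From the related lists, each of the 3 macrophage clusters gave the 2 largest and 2 smallest log2 ratios. These were taken among genes with at least 100 UMIs and 4 per library. The 5 related genes highest over those clusters were added. For members with at least 200 WT UMIs, the 3 genes with the highest r were taken, of which some are given. The candidates for r were genes with at least 200 WT UMIs. The C1q split, the leading genes of its classes, *Slc14a2*, *C1qa*, *Arg1*, *Spp1* in B cells, *Ly6c2* and *Ccr2* as the markers given, and the motifs were chosen after values were seen. The members, lists and comparisons were chosen with earlier results of these data known. Upstream sequences are from RefSeq; genome coordinates of the count files were not used.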

Additional observations from a re-analysis of the deposited data

Results flagged for a closer look

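Ratios of opposite sign in 2 clusters, with intervals that did not overlap, were found for 4 genes, and the difference between the clusters was not tested in any of them. *F10* had a log2 ratio of *Vsir-/-* over WT of -0.0085 in M2-like R2, where its interval included 0, and 0.80 in Other R2. *Plaur* had -0.34 in M2-like R2 and 0.29 in Other R2, where its interval included 0. *F5* had -1.11 in M2-like R2, on 15 *Vsir-/-* UMIs, and 0.33 in neutrophils, where its interval included 0. *Fn1* had 1.56 in M2-like R2 and 1.80 in Other R2 but -1.50 in neutrophils, where its interval included 0. The *Fn1* values in Other R2 and neutrophils came mostly from 1 cell each.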

How the results depend on the processing

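No paired analysis was possible because each genotype had 1 library, and for the same reason none could be left out. Of 165 alternative values of the ratios, 140 stayed within the interval of counting error, 23 moved beyond it and 2 turned. Of the shares of a gene's UMIs by cluster, 44 of 72 moved beyond their interval on thinning, *F10* in *Vsir-/-* M2-like R2 from 72.5% to 51.0% among them, and of the shares of cells with a UMI 103 of 144 moved. *F5* in M2-like R2 went from -1.11 to 1.14 when every cell weighed the same, and *Fn1* in Other R2 from 1.80 to -0.16 in cells with at most 5% mitochondrial UMIs. *Fn1* in M2-like R2 ranged from 1.42 to 1.65 over the other settings and *Thbs1* in neutrophils from 1.45 to 2.07, whereas the former was 0.13 in cells with *Ly6c2* and no C1q and 0.02 without cells of 20 or more *Fn1* UMIs, which removes cells by the gene measured, both added after seeing the data. Thinning left 8 ratios and subtraction of the B cell level 3 without a value.

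Counts of members called moved as follows. The share of all genes called was not taken at these other settings, for members or related genes. The counts therefore describe how the calls depend on the setting and are no result about the members. Without a filter, higher and lower calls were 1 and 3 in R1, 3 and 2 in Other R2 and 2 and 3 in neutrophils. At 100 UMIs, higher calls were 1 in M2-like R2 and 0 in Other R2, and lower calls 0 in neutrophils. At 1.5-fold, higher calls were 1 in R1, 2 in Other R2 and 2 in neutrophils, and lower calls 3 in M2-like R2. At 4-fold, higher calls were 0 in Other R2 and neutrophils, and lower calls 0 in M2-like R2 and neutrophils. Thinning gave 1 higher call in R1 and 0 lower calls in M2-like R2 and neutrophils, and the mitochondrial limit 0 higher calls in Other R2. In Other R2 the 1 higher call on thinning was *F10* and not *Fn1*, which held 0 WT and 9 *Vsir-/-* UMIs there. Without each gene's top cells, higher calls were 1 in M2-like R2 and 0 in Other R2, and lower calls 2 in M2-like R2 and 0 in neutrophils. In M2-like R2 cells with *Ly6c2* and no C1q, higher calls were 0, but *F3* and *Plau* held too few UMIs there for a call. Related genes with at least 100 UMIs gave 5 higher calls in R1, 5 in M2-like R2, 2 in Other R2 and 1 in neutrophils, and 1 and 0 lower calls in the last 2. Centring on the median of all genes moved no count beyond 1.5 times.

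Depth limits *F3*, *Plau* and *F5*, whose myeloid totals were mostly under 100 UMIs.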

Other observations

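WT plasmacytoid dendritic cells, a cluster of 21 cells, held 22 UMIs of *F13a1* (83.1 CPM, 52.1 to 126) and 55 of *Plaur* (208 CPM, 157 to 270), of which the top cells held 5 and 9. The 86 *Vsir-/-* cells given the same name had *F13a1* at 2.54 CPM and *Plaur* at 48.2 CPM. In 49 WT and 11 *Vsir-/-* M2-like R2 cells with neither *Ly6c2* nor C1q transcripts, whose median depths were 1095 and 820 UMIs, *Fn1* stood at 775 and 1526 CPM.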
